A study of Mus musculus with 6 samples.

Results

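The interleukin-1 (IL-1) family set described here holds the agonist ligands Il1a, Il1b and Il18, the receptor antagonist Il1rn and the soluble binding protein Il18bp. They were chosen by name in the deposited count table, where 5 of 35275 gene rows matched. Bulk RNA was sequenced from primary cultured C57/BL6 mouse microglia, the brain's own macrophages, in 3 control libraries and 3 libraries from cells co-cultured with regulatory T cells (Tregs). Those Tregs, held in transwell inserts, had been conditioned for 24 hours over slices of brain from 5 days after tMCAO (transient middle cerebral artery occlusion, a model of ischemic stroke), and the inserts were then kept over the microglia for 2 days. No slice or insert exposure is recorded for the controls, so Treg signals and slice material carried over with the insert cannot be told apart. Nothing in the labels ties a replicate to its own animal or culture, and the spread that the p values measure may therefore be technical.

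The IL-1 ligands act on a shared receptor. IL-1 alpha and IL-1 beta, encoded by Il1a and Il1b, bind the receptor chain IL1R1, which then recruits the accessory chain IL1RAP and signals through MyD88 and NF-kappaB. The antagonist encoded by Il1rn occupies IL1R1 without recruiting the accessory chain. IL-18 signals through its own pair of chains, IL18R1 and IL18RAP, and the secreted decoy IL-18BP keeps it from them. IL-1 beta and IL-18 are made as inactive precursors that caspase-1 cleaves inside inflammasomes, whereas the IL-1 alpha precursor is already active. After ischemia, microglia and macrophages are major sources of IL-1 in the brain. The libraries measure transcripts, not the cleaved or secreted proteins.

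Il1a and Il1b lie next to each other on chromosome 2 in the GRCm38 build, both on the minus strand, with Il1a at 129299610 to 129309972 and Il1b at 129364570 to 129371139, a gap of 54598 bases. Il1rn lies far from them on the same chromosome, at 24336853 to 24351494 on the plus strand. Il18 is on chromosome 9, 50554827 to 50581840, plus strand, and Il18bp on chromosome 7, 102014885 to 102018690, minus strand. These positions are GENCODE M21's, and RefSeq starts Il18 slightly farther upstream. RefSeq gives Il1rn start sites up to 8.5 kb apart, from which secreted and intracellular forms of the antagonist are made, and counts per gene do not separate them.

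The 250 bases before the start site are shown for the neighbours Il1b and Il1a, of which Il1b alone passed the test. They are also shown for Il18 and Il1rn, whose counts per gene rose. For Il1rn the window is that of the upstream start, and those of its downstream starts are not shown. The sequences are RefSeq's, build GRCm38.p6, written 5′ to 3′ on each gene's own strand, with capitals for matches to any of the motifs searched.
Il1b, chr2:129371140-129371389, minus strand: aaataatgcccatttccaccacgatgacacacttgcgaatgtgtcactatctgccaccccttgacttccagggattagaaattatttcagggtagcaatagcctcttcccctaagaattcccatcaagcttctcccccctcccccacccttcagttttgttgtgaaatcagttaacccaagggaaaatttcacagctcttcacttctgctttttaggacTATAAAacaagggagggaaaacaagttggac
Il1a, chr2:129309973-129310222, minus strand: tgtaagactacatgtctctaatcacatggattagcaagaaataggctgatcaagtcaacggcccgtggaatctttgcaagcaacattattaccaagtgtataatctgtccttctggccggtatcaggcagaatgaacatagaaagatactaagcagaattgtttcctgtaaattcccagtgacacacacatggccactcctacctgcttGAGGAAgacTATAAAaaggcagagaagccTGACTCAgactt
Il18, chr9:50554450-50554699, plus strand: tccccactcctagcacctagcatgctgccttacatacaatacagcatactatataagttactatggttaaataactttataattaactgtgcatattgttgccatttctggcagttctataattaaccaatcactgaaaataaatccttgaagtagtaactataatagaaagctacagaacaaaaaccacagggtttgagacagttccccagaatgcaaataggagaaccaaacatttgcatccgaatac
Il1rn, chr2:24336610-24336859, plus strand: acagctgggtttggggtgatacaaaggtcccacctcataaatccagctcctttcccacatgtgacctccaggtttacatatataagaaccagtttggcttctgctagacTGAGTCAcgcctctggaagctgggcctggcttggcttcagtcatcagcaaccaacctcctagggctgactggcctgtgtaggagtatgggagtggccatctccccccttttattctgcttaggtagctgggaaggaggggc

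Both IL-1 agonist genes carried a TATA box (TATAAA, gene strand only) close to the start, 31 to 26 bases before it in Il1b and 32 to 27 bases before it in Il1a. Such a box was found in 7.59% of 32851 promoter windows of this length, and in no window of Il18, Il1rn or Il18bp. The AP-1 motif TGANTCA (both strands, 6.75% of windows) was at 12 to 6 bases before the Il1a start and at 141 to 135 bases before the upstream Il1rn start. The PU.1 motif GAGGAA (both strands, 23.3% of windows) was found at 41 to 36 bases before the Il1a start. A C/EBP motif, TTGCNNAA (both strands, 9.56% of windows), stood as TTGCGGAA at 49 to 42 bases before the RefSeq start of Il18bp, in a stretch that GENCODE M21 places inside an exon of a longer transcript. No member window held the interferon-stimulated element core (GAAA and GAAA with NN between them, both strands, 2.98% of windows), the palindromic STAT motif TTCNNNGAA (7.02%) or the NF-kappaB consensus (5%). Motifs did not overlap, apart from AP-1 matches read on both strands. These are letter matches in 1 short window, not shown to be bound. GENCODE also has Il18 transcripts that start farther downstream, whose promoters are not shown.

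Il1b rose in microglia co-cultured with Tregs, while its neighbour Il1a did not pass the test. The levels are CPM, counts divided by library size and scaled by the trimmed mean of M values (TMM), comparable between libraries but not between genes, and a gene was called changed at an adjusted p below 0.05 in edgeR's quasi-likelihood test over 13274 genes. Il1b, the main secreted IL-1 of activated macrophages, stood at 6.08, 5.08 and 7.93 CPM in control replicates 1 to 3 and at 10.1, 10.4 and 14.1 CPM in the co-cultured ones. Every co-cultured library was above every control, and replicate 3 was the highest in each group. The means were 6.36 ± 1.45 and 11.6 ± 2.24 CPM (SD, as in all later means, with n = 3 libraries a group). Il1b was thus 1.80-fold higher, a log2 fold change of 0.85 ± 0.16 (SE) at an adjusted p of 6.36e-05. In bulk RNA, more cells of a type and more RNA per cell cannot be told apart.

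Il1a, which is released as an alarmin by damaged cells, was the least abundant member, with 60 to 120 counts per library. It stood at 3.40, 4.16 and 5.50 CPM in the controls and at 2.95, 3.83 and 2.92 CPM after co-culture. The groups overlapped, since co-cultured replicate 2 exceeded control replicate 1. The means were 4.35 ± 1.06 and 3.23 ± 0.521 CPM, with a log2 fold change of -0.43 ± 0.19 (SE) that was not called (adjusted p = 0.0643). Its call depended on single libraries and on scaling. Without control replicate 1 the log2 fold change was -0.59 (adjusted p = 0.0178) and without co-cultured replicate 2 it was -0.57 (adjusted p = 0.0367), whereas without control replicate 3, the highest library, it was -0.22 (adjusted p = 0.431). Upper-quartile scaling (adjusted p = 0.031) and library totals alone (adjusted p = 0.0354) also took it past the threshold. Its adjusted p over the 16 alternatives ran from 0.0178 to 0.431.

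Il18, which drives interferon-gamma production by T and natural killer cells, had the largest rise of the set. Control libraries held 5.71, 5.42 and 5.91 CPM and co-cultured libraries 15.2, 14.2 and 13.6 CPM. The groups were well apart and the spread within each was small, with a coefficient of variation of 4.32% in controls and 5.44% after co-culture, against 22.7% and 19.3% for Il1b. Il18 was 2.51-fold higher, from 5.68 ± 0.246 to 14.3 ± 0.779 CPM, for a log2 fold change of 1.33 ± 0.12 (SE) and an adjusted p of 2.76e-11.

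Both antagonists rose as well. Il1rn had the highest counts of the set, with 420 to 619 per control library and 1009 to 1157 per co-cultured library. It stood at 24.1, 24.2 and 28.4 CPM in controls and at 47.2, 54.7 and 50.7 CPM after co-culture, with no overlap. The rise was 1.99-fold, from 25.6 ± 2.42 to 50.9 ± 3.78 CPM, for a log2 fold change of 0.99 ± 0.08 (SE) and an adjusted p of 6.49e-13.

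Il18bp, the decoy for IL-18, had the smallest of the called rises. It stood at 10.5, 9.29 and 9.72 CPM in controls and at 14.5, 15.3 and 16.2 CPM after co-culture, again without overlap. It was 1.55-fold higher, from 9.83 ± 0.600 to 15.3 ± 0.868 CPM, for a log2 fold change of 0.64 ± 0.11 (SE) and an adjusted p of 6.94e-06.

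**Figure D1:**
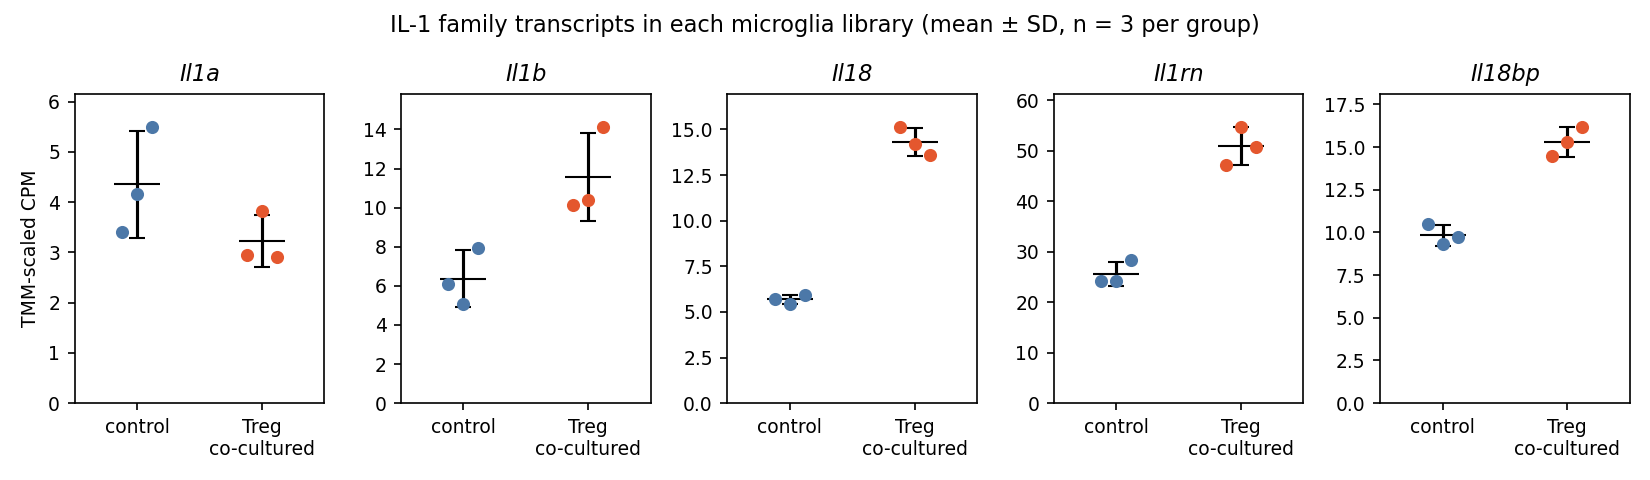
TMM-scaled CPM of each IL-1 family gene by library (vertical axis, from 0, scaled per panel) in control and Treg co-cultured microglia. Points are libraries, bars are the mean ± SD of 3; the groups overlap at Il1a and are apart at the other genes.

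In all, 5 of 5 members passed the filter on low counts, 4 rose, 0 fell and 1 was not called. Their median log2 fold change was 0.85, against -0.01 over all genes tested. These counts stand against a broad change: 50.9% of all genes tested were called, 25.9% higher and 25% lower, and the groups did not overlap at 57.2% of genes, against 4 of 5 members. The balance over all genes depended on scaling, with 3432 higher and 3320 lower under TMM, 2731 and 4090 under upper-quartile scaling and 2630 and 3830 in the table of FPKM (fragments per kilobase of transcript, scaled to library size) with a pseudocount of 0.1. The 4 called rises kept their direction and their call in each of 16 alternatives per gene.

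**Figure D2:**
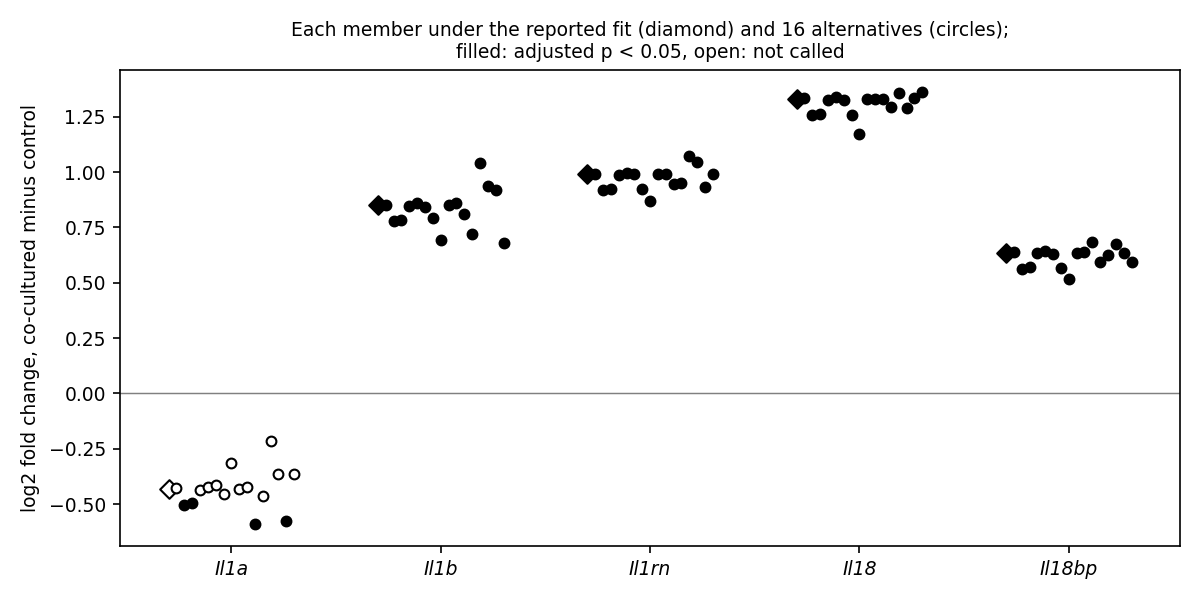
Log2 fold change (co-cultured minus control, vertical axis) of each IL-1 family gene in the reported fit (diamond) and in 16 alternatives (circles). Filled symbols are past the adjusted p threshold; those of Il1b, Il1rn, Il18 and Il18bp are all filled and above 0, and those of Il1a are all below 0 with 4 filled circles.

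The libraries held 16972758 to 22084542 counts each. Of the microglia list, Csf1r and C1qa, which other macrophages also express, were the most abundant, with Csf1r at 2795 ± 28.4 and 2476 ± 158 CPM and C1qa at 1873 ± 200 and 1884 ± 124 CPM. Markers more particular to microglia, named after their values were seen, were low. Tmem119 was at 7.60 ± 0.565 and 9.57 ± 1.16 CPM, P2ry12 at 9.07 ± 0.928 and 12.98 ± 1.53 CPM, and Siglech had 11, 3 and 2 counts in controls and 2, 0 and 0 with Tregs. Of 11 markers tested, 4 rose and 6 fell, and the list's sum was 7449 to 7978 CPM in controls against 5745 to 6452 CPM with Tregs. Of 9 neutrophil markers, a cell type rich in Il1b, 6 were at 0 in every library, S100a9 and Ly6g among them, and the summed level was 0.0458 to 0.577 CPM in controls and 0.237 to 0.535 CPM with Tregs. T cell markers summed to 14.3 to 15.1 CPM in controls and to 14.9 to 15.8 CPM with Tregs, with Ctla4 and Trac at 0 throughout and Cd3e at 0, 0 and 0 against 10, 2 and 3 counts. Behind that sum, 1 of 4 tested T cell markers rose and 2 fell. Cd4, which some macrophages also express, rose 2.53-fold from 2.53 ± 0.726 to 6.41 ± 0.178 CPM (adjusted p = 2.14e-07). Foxp3, named after its values were seen, fell 1.98-fold (adjusted p = 0.000429). Ikzf2 fell 1.34-fold (adjusted p = 0.0103), a call lost in the FPKM table (0.0546, pseudocount 0.1) and when control replicate 1 (0.0531) or co-cultured replicate 1 (0.0654) was left out. Its adjusted p ran from 0.00303 to 0.0654 over the alternatives. Monocyte and border macrophage markers, cells that also make Il1b and Il1rn, summed to 710 to 751 CPM in controls and to 1173 to 1261 CPM with Tregs. There 3 of 4 tested rose, while Ly6c2 had 1 count in all. The most abundant, Ms4a7 and Mrc1, rose 1.30-fold and 1.66-fold. Pf4, named after its values were seen, rose most, 7.47-fold from 24.8 ± 4.21 to 185 ± 53.7 CPM (adjusted p = 0.00141). Ccr2, Lyve1, F13a1 and Cd163 are also named after their values were seen. Ccr2, the tested marker that was not called, held 1.52 ± 0.375 and 1.51 ± 0.103 CPM (adjusted p = 0.994). Among those too low to test, Lyve1 had 3, 5 and 4 counts in controls and 0, 0 and 0 with Tregs. F13a1 had 5, 4 and 9 against 24, 12 and 9 counts, and Cd163 2, 1 and 0 against 4, 9 and 1. The part of monocytes and border macrophages in the rises of Il1b, Il1rn, Il18 and Il18bp was not tested. Markers of astrocytes and oligodendrocytes, led by Mbp, summed to 164 to 184 CPM in controls and to 99.98 to 112 CPM with Tregs, with 6 of 10 lower and 1 higher. Fibroblast and endothelial markers, led by Col1a1 and Pecam1, summed to 32.8 to 40.1 and 39.1 to 52.1 CPM, with 3 of 6 tested higher. The mitochondrial share of counts was 1.32% to 1.38% in controls and 0.636% to 0.772% after co-culture, and its part was not tested either.

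Per length, the deposited FPKM put Il1rn first in the controls at 10.6 ± 0.961 FPKM, then Il18 at 8.28 ± 0.351, Il18bp at 7.18 ± 0.465, Il1b at 4.79 ± 1.08 and Il1a at 2.25 ± 0.541 FPKM. No neighbours in that order overlapped between libraries. After co-culture the order of means was the same, but Il1rn (20.1 ± 1.63 FPKM) and Il18 (19.9 ± 0.949 FPKM) overlapped, as did Il18bp (10.7 ± 0.670 FPKM) and Il1b (8.34 ± 1.64 FPKM). Il1a was lowest at 1.60 ± 0.265 FPKM. The order rests on the length the authors used. That length was 2474 bases for Il1rn and 702 for Il18, where the merged exons of GENCODE M21 span 5535 and 1031 bases. With the latter, an alternative chosen after the data had been seen, Il18 came first in both groups, at 5.63 ± 0.239 and 13.6 ± 0.646 FPKM, ahead of Il1rn at 4.72 ± 0.430 and 8.98 ± 0.727 FPKM. Il1b then came before Il18bp in both groups, at 3.41 ± 0.766 against 3.32 ± 0.215 FPKM in controls and 5.93 ± 1.17 against 4.94 ± 0.310 FPKM with Tregs.

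Set against Il1b within each library, the antagonist Il1rn did not move beyond the spread between libraries. The log2 ratio of Il1rn to Il1b, with 0.1 added to each FPKM, was 1.11, 1.36 and 0.96 in the controls and 1.34, 1.52 and 0.97 after co-culture. These values overlapped, and the means, 1.14 ± 0.205 and 1.27 ± 0.279, differed by 0.13 (two-sided exact permutation test, p = 0.6). Leaving out single libraries moved the difference between 0.01 and 0.28. The test does not show that the ratio is equal in the groups. The size of the ratio also rests on the gene lengths. On the linear scale it was 2.25 ± 0.334 and 2.47 ± 0.465 with the authors' lengths, and 1.42 ± 0.210 and 1.55 ± 0.292 with the merged exons of GENCODE M21.

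The ratio of Il1rn to Il1a moved further. It was 2.44, 2.17 and 2.00 on the log2 scale in the controls and 3.59, 3.44 and 3.71 after co-culture, a difference of 1.38 with no overlap (two-sided exact permutation p = 0.1, the smallest that 3 against 3 allows, and 0.15 adjusted over the 3 ratios). With the M21 lengths the linear ratio was 2.15 ± 0.350 and 5.67 ± 0.554, against 4.81 ± 0.784 and 12.7 ± 1.24 with the authors' lengths. Within the agonists, Il1b made up 72.2%, 64.02% and 67.7% of the summed Il1a and Il1b FPKM in the controls and 83.4%, 79.8% and 87.6% after co-culture. The make-up of the IL-1 agonist transcripts thus held more Il1b in every co-cultured library, a description that was not tested. The summed agonist level itself overlapped between groups, at 7.05 ± 1.52 and 9.93 ± 1.55 FPKM.

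In the IL-18 pair, the decoy was lower relative to its ligand after co-culture. The log2 ratio of Il18bp to Il18 was -0.12, -0.22 and -0.28 in the controls and -1.06, -0.88 and -0.74 after co-culture. The difference was -0.69, with no overlap (two-sided exact permutation p = 0.1, the smallest possible, and 0.15 adjusted over the 3 ratios). On the linear scale the FPKM of Il18bp was 0.867 ± 0.0482 of that of Il18 in controls and 0.538 ± 0.0591 after co-culture, or 0.589 ± 0.0327 and 0.366 ± 0.0402 with the M21 lengths. Each difference kept its sign in the 9 alternatives run for it.

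**Figure D3:**
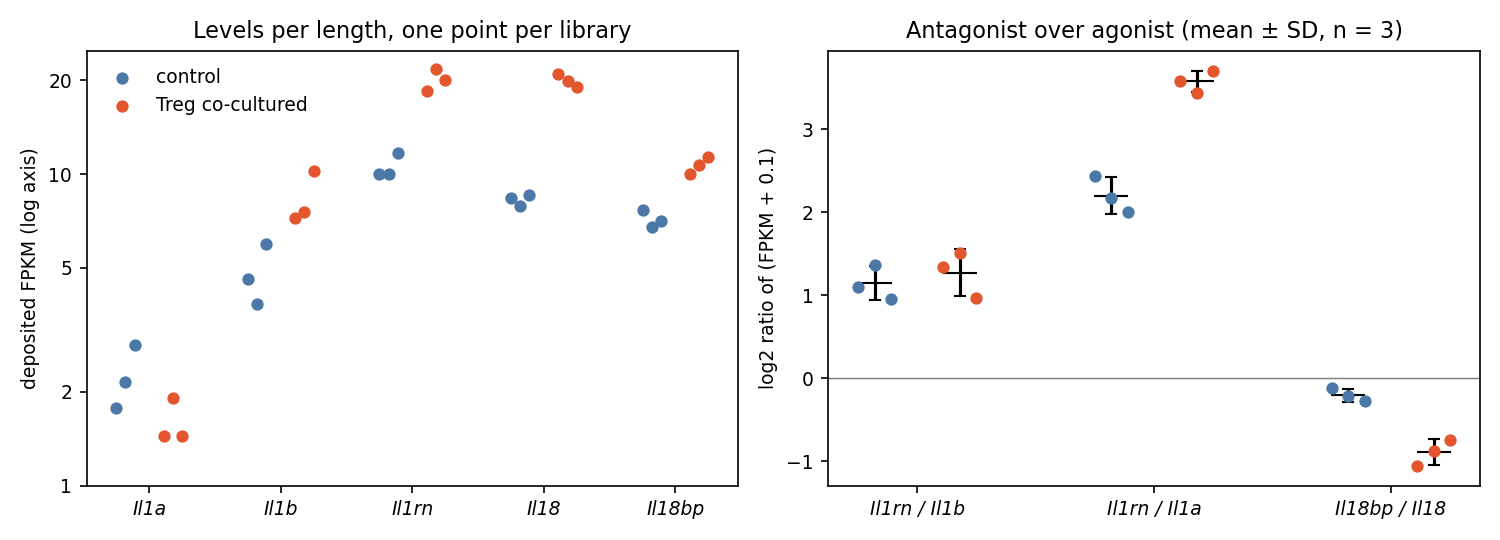
Left, deposited FPKM of each IL-1 family gene by library (log axis). Right, log2 ratio of an antagonist or decoy to its agonist by library, with mean ± SD (n = 3 per group): the ratio of Il1rn to Il1b overlaps between groups, that of Il1rn to Il1a is higher in co-cultured libraries and that of Il18bp to Il18 lower.

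Other genes overlap these loci, and the cDNA and tagmentation kits do not mark strand. Numa1, a mitotic spindle protein gene at 454 CPM in controls and at 410 CPM with Tregs, runs opposite to Il18bp and shares 80 exon bases with it (2.64% of the Il18bp exons). Numa1 changed in the opposite direction (log2 fold change -0.15, adjusted p = 0.0396), a call lost with DESeq2 (0.0669) and without control replicate 1 (0.112), control replicate 2 (0.199) or co-cultured replicate 2 (0.254). Its adjusted p ran from 0.00249 to 0.254 over the alternatives. Bco2, a carotenoid-cleaving enzyme gene on the strand opposite Il18, shares 0 exon bases with it and rose from 7.09 to 13.9 CPM (log2 fold change 0.99, adjusted p = 0.00329). Gm14023 shares 222 bases with Il1a (11.25% of its exons) and the antisense RNA Il1bos 25 bases with Il1b. Gm14023 had a mean of 0.240 CPM in controls and 0.0939 CPM with Tregs, and Il1bos 0.0306 and 0.0964 CPM. How far reads of these genes enter the member counts was not tested.

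Of the other IL-1 family ligands, hardly any transcript was found. Il36a, Il36b, Il36rn and Il1f10 had 0 counts in every library and Il36g had 1 count, in control replicate 3. Il33, the alarmin that binds ST2, was counted 17, 18 and 33 times in control libraries against 2, 14 and 11 times with Tregs, and fell 2.57-fold (adjusted p = 0.0152). Its call was lost without control replicate 3 (adjusted p = 0.113), without co-cultured replicate 1 (0.112) and with DESeq2 (0.0607), over a range of 0.00817 to 0.113.

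Of 8 listed receptors of the family, 5 passed the filter, 3 of them fell and 1 rose. The median over those tested was -0.78 (log2 fold change). Shares of any list are to be read beside the 25.9% of all genes that were higher and the 25% that were lower. Il1r1, the signalling receptor of IL-1, was counted 13, 16 and 34 times in control libraries against 9, 11 and 8 times with Tregs, 2.30-fold lower (adjusted p = 0.0217). That call was lost without control replicate 3 (adjusted p = 0.237), without co-cultured replicates 1 (0.0596) or 3 (0.0674), with DESeq2 (0.0847) and in the FPKM table (0.0541 with a pseudocount of 0.1 and 0.0924 with 1). Over its alternatives the adjusted p of Il1r1 ranged from 0.00769 to 0.237. Il1rap, the accessory chain, named after its values were seen, held 10.6 ± 0.992 and 11.6 ± 0.863 CPM and was not called (adjusted p = 0.366). The decoy receptor Il1r2, also named after its values were seen, had 2 counts in control replicate 1 and 0 elsewhere.

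For IL-18, the accessory chain Il18rap rose 2.74-fold, from 0.892 ± 0.213 to 2.47 ± 0.502 CPM (adjusted p = 9.16e-05). The ligand-binding chain Il18r1, named after its values were seen, had 0 counts in the controls and 1, 1 and 0 counts after co-culture, at or below 3 counts in each group. Il1rl1, which encodes the IL-33 receptor ST2, fell 4.05-fold, from 5.10 ± 0.256 to 1.25 ± 0.555 CPM (adjusted p = 7.36e-09). Il1rl2, the IL-36 receptor, fell 1.71-fold, from 5.78 ± 0.775 to 3.35 ± 1.003 CPM (adjusted p = 0.0008).

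Genes that mature or release IL-1 and IL-18 mostly rose. Of 16 listed, 15 were tested, of which 9 rose, 1 fell and 5 were not called. Their median log2 fold change was 0.26. Nlrc4, which assembles the inflammasome that answers bacterial flagellin, rose 3.92-fold, from 6.89 ± 0.496 to 26.9 ± 0.816 CPM (adjusted p = 9.17e-18). Casp4, encoding the mouse caspase-11 that senses cytosolic lipopolysaccharide, rose from 22.1 ± 1.67 to 39.95 ± 0.888 CPM. Casp8, a death-receptor caspase that can also cleave IL-1 beta, rose from 73.8 ± 1.80 to 131 ± 5.07 CPM. Capn2, a calpain subunit of the protease family that cleaves IL-1 alpha, rose 1.61-fold to 166 ± 4.85 CPM. The other listed calpain genes, Capn1 and Capns1, named after their values were seen, were not called. Capn1 held 95.8 ± 3.06 and 101 ± 0.462 CPM (adjusted p = 0.209) and Capns1 340 ± 21.2 and 354 ± 19.2 CPM (adjusted p = 0.397). Casp1, Pycard, Gsdmd and Nlrp3 are named after their values were seen. Casp1, the converting enzyme of IL-1 beta and IL-18, rose 1.20-fold, from 71.5 ± 2.70 to 85.6 ± 5.96 CPM (adjusted p = 0.000408). The adaptor Pycard and the pore-forming Gsdmd each rose by 0.58 on the log2 scale, whereas the sensor Nlrp3 had 44.9 ± 0.893 and 49.03 ± 2.01 CPM and was not called (adjusted p = 0.0908).

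Signalling genes below the receptors were mixed. Of 17 tested, 5 rose and 2 fell, and the other 10 were not called. The median log2 fold change was 0.01. With upper-quartile scaling 3 were higher and 7 lower. The adaptor Myd88 rose 1.87-fold, from 39.1 ± 2.98 to 73.0 ± 2.01 CPM (adjusted p = 7.15e-14), and Tab2, an adaptor of the kinase TAK1, rose 1.33-fold. The Pellino ubiquitin ligase genes Peli2 and Peli3 fell 2.01-fold and 1.60-fold. Peli1, of the same family and named after its values were seen, was called higher, though its groups overlapped. It held 45.7 ± 1.33 and 51.4 ± 5.35 CPM (adjusted p = 0.0397). The median of this list was close to that of all genes.

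Of 15 genes listed as inducible by IL-1 in many cell types, 12 were tested, of which 9 rose, 0 fell and 3 were not called. Their median log2 fold change was 1.08. Bcl3, a nuclear IkappaB protein, rose from 15.8 ± 2.25 to 35.8 ± 2.49 CPM (adjusted p = 1.94e-12), and Nfkbiz, another of that family, from 13.2 ± 0.620 to 26.0 ± 1.47 CPM. The neutrophil chemokine Cxcl2 rose 7.26-fold, from 0.660 ± 0.262 to 4.89 ± 1.25 CPM, and Ptges, a prostaglandin E synthase, 5.66-fold to 22.7 ± 1.95 CPM. Il6 and Tnf are named after their values were seen. Il6 was counted 1, 4 and 0 times in control libraries against 0, 1 and 2 times with Tregs, and Tnf had 10.4 ± 0.919 and 11.03 ± 0.254 CPM and was not called (adjusted p = 0.573). Many of these genes also answer to other signals.

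Transcription factors and an RNA-decay factor known to act on these genes formed a further list of 18, of which 14 rose, 1 fell and 3 were not called. Their median log2 fold change was 0.75. Fosl2, an AP-1 subunit, rose 3.22-fold, from 59.0 ± 2.53 to 190 ± 3.22 CPM (adjusted p = 4.05e-23), and Fos 2.24-fold to 161 ± 5.14 CPM. Stat3, which carries signals of the IL-6 and IL-10 receptors, rose 2.12-fold to 316 ± 11.7 CPM. Rela, a subunit of NF-kappaB, was the gene that fell, by 0.14 on the log2 scale (adjusted p = 0.0171, named after its values were seen). Leaving out control replicate 3 (adjusted p = 0.0507) or co-cultured replicate 2 (0.0517) ended that call, and the alternatives ran from 0.000512 to 0.0517.

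**Figure D4:**
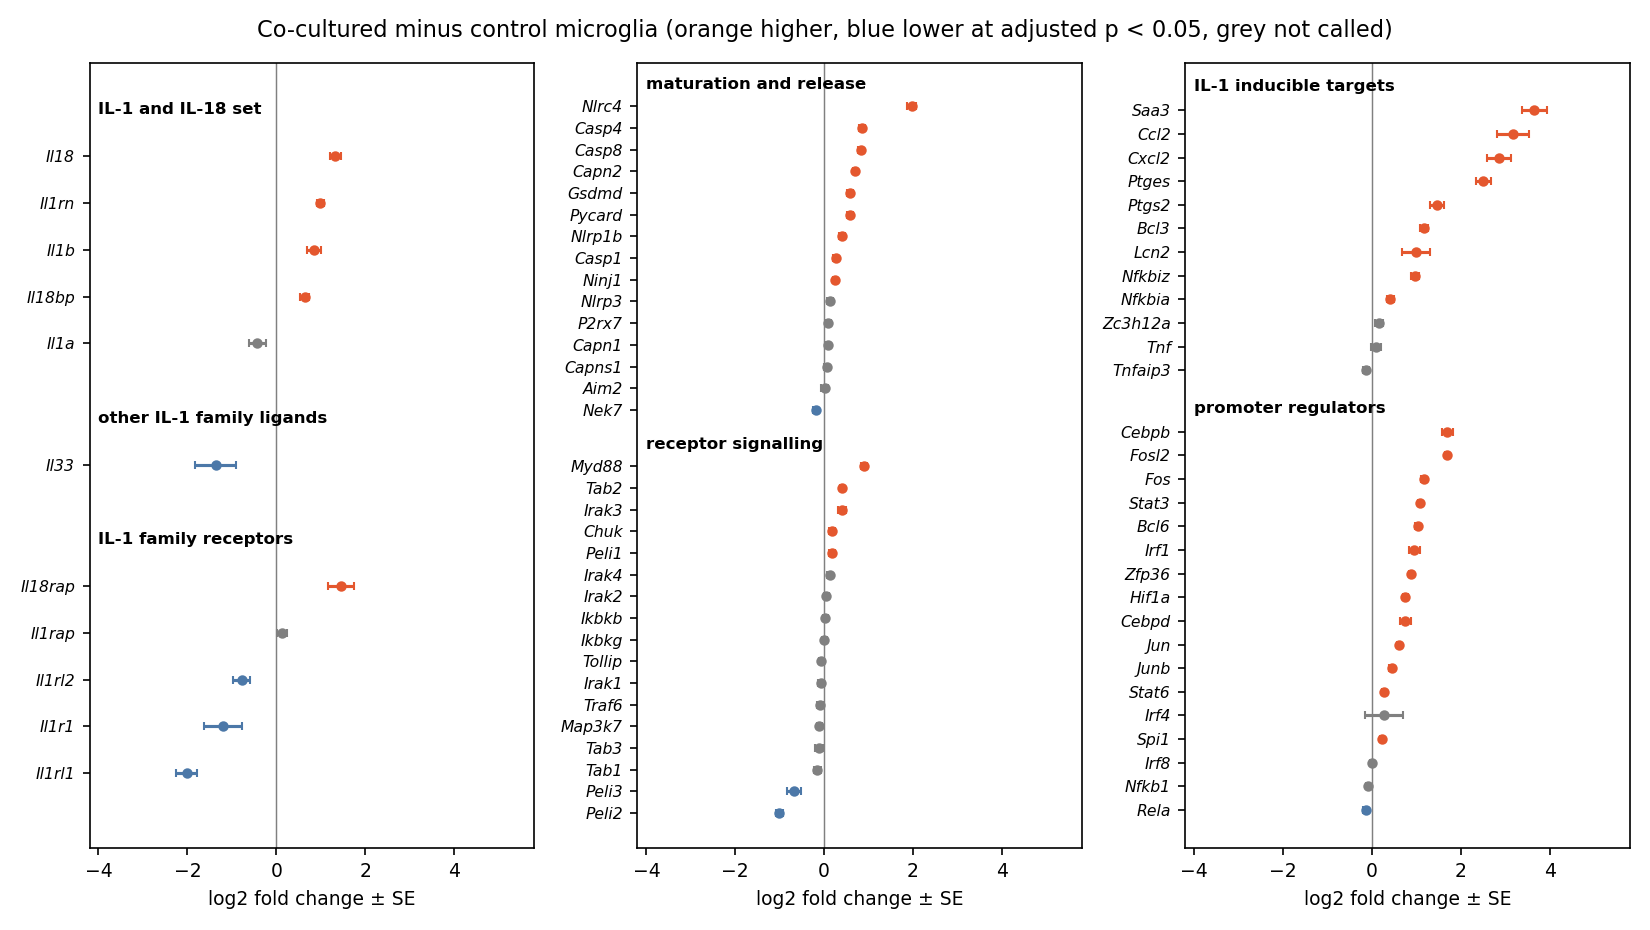
Log2 fold change ± SE (horizontal axis, co-cultured minus control) of the IL-1 family genes and of tested genes of the other lists, 1 row per gene. Orange genes rose, blue genes fell and grey genes were not called; 9 of 12 tested inducible targets rose, while 3 of 5 tested receptors fell.

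Genes whose pattern over the 6 libraries was most like each member were found by Pearson r of log2 CPM, a description in which the split into groups carries most of the likeness. For Il18 they were Pcsk7, Rnpep and the interferon-induced Mx1, at r = 0.9999 each. For Il1rn they were H2-Q5 (r = 0.9989), Ltbr (0.9974) and Mapkapk2 (0.9973). H2-Q5 is a class I gene with near-identical relatives, so its counts are uncertain. For Il18bp they were Smpdl3a (0.9983), Pole (0.9977) and Ap3m1 (0.9972), and for Il1b Prkcsh (0.9931), Tex10 (0.9922) and Capg (0.9909). For Il1a, the member that was not called, they were Tsen15 (0.9855), Abt1 (0.9831) and Slc25a3 (0.9820). In the reported fit these were not called themselves (adjusted p of 0.142, 0.109 and 0.0533). Some alternatives called them lower and others did not. Upper-quartile scaling gave an adjusted p of 0.0351 for Abt1 and 0.00219 for Slc25a3. Leaving out control replicate 1 gave 0.047 for Tsen15.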

How the data were processed

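Primary mouse microglia were profiled by bulk RNA-seq. Per the labels' protocols, Trizol-extracted RNA went through SMART-Seq HT cDNA synthesis and Nextera XT tagmentation, followed by paired-end sequencing. Per the submitters' processing notes, STAR (no version given) and HTSeq 0.11.2 were used with GRCm38, and their options are not known here. Deposited values are unnormalized read counts of each gene, as whole numbers, and the authors' FPKM, scaled by gene length and library total. The gene length implied by counts and FPKM was equal across libraries (relative tolerance 1e-06) in 12011 of 12011 genes with at least 10 counts per library, so both come from the same counts.

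The counts of the table with identifiers were tested with edgeR 4.0.16 (R 4.3.3, limma 3.58.1): filterByExpr, TMM, robust dispersions, robust legacy quasi-likelihood fit on group alone, two-sided F-test, and Benjamini-Hochberg adjustment over 13274 genes. The SE is the log2 fold change divided by the square root of F. DESeq2 1.42.0 was an alternative. The test was checked on simulated data. Ratios of FPKM used exact permutation tests over libraries.

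Members and lists were chosen with earlier results of these data known. Named genes are the members, up to 4 genes of smallest adjusted p per pathway list, the 2 most abundant genes and those at 0 of each marker list, and for likeness the 3 genes of highest r with a mean of at least 5 CPM (log2 of CPM + 0.5). Of genes this rule names, 1 marker and 1 promoter regulator are not reported here singly, though list counts include them. Older symbols in the table were matched through RefSeq synonyms for the Il36 genes. Same-numbered replicates did not deviate together. Counts without molecular identifiers carry more than counting error.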

Additional observations from a re-analysis of the deposited data

How the results depend on the processing

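The 4 members Il1b, Il1rn, Il18 and Il18bp kept their direction and their call in 16 of 16 alternatives each, and the 3 ratio differences kept their sign in 9 of 9, in a design that cannot pass the threshold. Il1a stayed negative in 16 of 16 alternatives but passed the threshold in 4, with a log2 fold change of -0.50 under upper-quartile scaling, -0.495 with unscaled library totals, and a range of -0.59 to -0.22 when single replicates were left out. The cause was not tested. The number of genes called was 6752 as reported, 5793 with DESeq2 and 6028 to 6455 without single replicates. The replicate numbers are shared by both groups, but same-numbered libraries had correlations of deviations of 0.0214, -0.0233 and 0.00438, and control replicates 2 and 3 did not correlate best with their own numbers. With the replicate block 6755 genes were called, and it changed no call of a member. Ratio differences with that pairing were 0.13, 1.38 and -0.69.

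Counts in lists moved by over 1.5 times in a few alternatives, counts that were added after the data had been seen. Receptor signalling genes went from 5 higher and 2 lower to 3 and 7 with upper-quartile scaling, 3 and 6 with library totals and 3 and 4 in the FPKM table, and to 3 higher without control replicate 1. Receptors went from 1 to 2 higher without co-cultured replicate 3. Inducible targets went from 0 to 1 lower with either of these scalings, and when co-cultured replicate 2 was left out. Promoter regulators went from 1 lower to 2 with either scaling and in the FPKM table, and to 0, with the call of Rela lost, without control replicate 3 or co-cultured replicate 2. The single called ligand of the other IL-1 family genes, Il33, lost its call with DESeq2 and when control replicate 3 or co-cultured replicate 1 was left out. Depth was low for Il33 and Il1r1, with as few as 2 and 8 counts in a library.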

Other observations

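Genes next to the members did not share a direction with them throughout. Psd4, the next protein-coding gene after Il1rn (16086 bases away), rose from 44.5 to 81.8 CPM (log2 fold change 0.88, adjusted p = 1.98e-14 with edgeR). Pts and Sdhd, on either side of Il18, fell by 0.44 and 0.25 on the log2 scale (adjusted p of 9.16e-04 and 0.00187). Rnf121, whose nearer end lies 447 bases from Il18bp, rose by 0.29 (adjusted p = 0.00238). Lrrc51 on the other side fell by 0.46 (adjusted p = 0.0196). That call was lost with DESeq2 (0.0843) and when control replicate 3 (0.135) or co-cultured replicate 2 (0.114) was left out. The adjusted p of Lrrc51 ran from 0.00743 to 0.135 over the alternatives. Ckap2l, 2398 bases from Il1a, went from 3.47 to 2.57 CPM and was not called (adjusted p = 0.0862), though 3 of 16 alternatives called it lower, over a range of 0.0228 to 0.431. No explanation for these values was tested.

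Foxp3, the defining transcription factor of Tregs and chosen here after its values were seen, had 79, 53 and 66 counts in the control microglia and 38, 36 and 29 after Treg co-culture, and was called lower (log2 fold change -0.98, adjusted p = 4.29e-04), while Cd4, of the same marker list, had 41, 42 and 72 counts in controls and 135, 133 and 136 with Tregs and was called higher (log2 fold change 1.34, adjusted p = 2.14e-07). Ctla4 and Trac had 0 counts in every library.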
